A study of Mus musculus with 8 samples.

Results

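Azacitidine given alone was compared with Vehicle at CpG cytosines, in 4 of the 8 libraries of the series. The members were all autosomal CpG positions, counted separately on the strands, and all 1000-bp tiles with at least 3 covered positions that had at least 20 reads in each of the 4 libraries. This left 192180 of 4006353 positions and 54724 of 334414 tiles. The 4 libraries held between 119441709 and 130796962 methylation calls each. A methylation level is the number of methylated reads divided by methylated plus unmethylated reads. Tiles, and the gene windows below, sum the reads of all their positions, so a sequenced read over several CpGs is counted at each. Means over tiles or positions count each once unless stated otherwise.

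Reduced representation bisulfite sequencing (RRBS) reads CpG-rich restriction fragments after a treatment that converts unmethylated cytosine. The material was genomic DNA of mouse leukaemic progenitors named I1DN, which the labels do not expand, labelled cKit positive and Cd11b negative, from mice that had received I1DN cells by transplantation. The groups were Vehicle, AZA (azacitidine), AG120 (ivosidenib, an inhibitor of mutant IDH1) and AG120_AZA (both drugs, here called the combination), all labelled 5 days, with 2 libraries each. The labels give no dose, age or donor and do not say whether libraries of a group came from separate animals, so the p-values measure only the spread between these libraries.

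DNMT1 copies methylation onto the new DNA strand after replication, while DNMT3A and DNMT3B set it on unmethylated DNA. Azacitidine is a cytidine analogue that cells phosphorylate and build into RNA and, after reduction, into DNA, where it traps these enzymes. It is known for loss of methylation in dividing cells and is used to treat myeloid leukaemia.

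To show what a measurement consists of, the following sequences give the 250 bases before the start of 4 genes. Every CpG in which a cytosine had at least 20 reads in all 4 libraries is in capitals. Ripply2, which limits T-box factors in somite formation, was among the windows named for a higher level in AZA at positions shared by the libraries. Cda is the deaminase that inactivates azacitidine, Dnmt3b is a target of the drug, and Flt3 is a receptor kinase of progenitors. Coordinates are on GRCm38.p6, which is mm10, and the sequences are from RefSeq, given 5′ to 3′ on the strand of the gene. Ripply2 lies at chr9:87015287-87015536 (+), Cda at chr4:138367956-138368205 (−), Dnmt3b at chr2:153649199-153649448 (+) and Flt3 at chr5:147400490-147400739 (−).
Ripply2: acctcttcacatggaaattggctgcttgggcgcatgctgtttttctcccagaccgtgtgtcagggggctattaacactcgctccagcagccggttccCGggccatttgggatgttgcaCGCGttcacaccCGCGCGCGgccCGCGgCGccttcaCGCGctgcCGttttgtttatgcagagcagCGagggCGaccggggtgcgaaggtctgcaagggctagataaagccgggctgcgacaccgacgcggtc
Cda: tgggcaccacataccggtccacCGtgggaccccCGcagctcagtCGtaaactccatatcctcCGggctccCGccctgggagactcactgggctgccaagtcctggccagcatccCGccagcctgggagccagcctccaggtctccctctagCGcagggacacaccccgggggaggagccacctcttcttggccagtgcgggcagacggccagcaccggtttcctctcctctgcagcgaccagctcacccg
Dnmt3b: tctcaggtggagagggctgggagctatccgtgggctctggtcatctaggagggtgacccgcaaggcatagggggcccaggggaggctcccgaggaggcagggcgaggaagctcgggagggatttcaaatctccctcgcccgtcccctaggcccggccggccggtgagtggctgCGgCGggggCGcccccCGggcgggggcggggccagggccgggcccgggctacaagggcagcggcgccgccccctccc
Flt3: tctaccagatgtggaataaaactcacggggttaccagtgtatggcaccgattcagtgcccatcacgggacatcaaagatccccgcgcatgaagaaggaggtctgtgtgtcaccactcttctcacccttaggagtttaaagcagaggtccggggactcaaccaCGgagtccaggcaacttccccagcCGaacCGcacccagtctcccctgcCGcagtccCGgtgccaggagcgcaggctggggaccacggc

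Before the start of Ripply2, 15 of 26 CpGs were read in all 4 libraries, each at 1 cytosine. Their mean level was 20.2% and 23.2% in the Vehicle libraries and 46.7% and 40.9% in the AZA libraries. Neighbouring CpGs took the same few values within a library. AZA replicate 1 had 8 positions at 0% and 7 at 100%, with 249 or 250 reads at each, and AZA replicate 2 had 4 distinct levels over 169 or 170 reads. Vehicle replicate 1 had 5 distinct levels over 98 reads, and Vehicle replicate 2 had 5 over 30 or 31 reads. The plot of single positions before Ripply2 and Cda shows these steps. Both AZA libraries exceeded both Vehicle libraries at 4 of the 15 positions and fell below both at 0.

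Before the start of Cda, 7 of 14 CpGs were read in all 4 libraries, at 8 cytosines, with mean levels of 9.34% and 9.22% in Vehicle and 14.7% and 15.3% in AZA. The cytosine 187 bases before the start stood at 26.0%, 32.4%, 2.14% and 90.7% in the order Vehicle replicates 1 and 2, AZA replicates 1 and 2. At that cytosine the Vehicle libraries lay between the 2 AZA libraries. Before the start of Dnmt3b, 4 of 21 CpGs were read in all 4 libraries, and the 1 level above 0% was 85.0%, at the cytosine 60 bases before the start in Vehicle replicate 2.

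**Figure D1:**
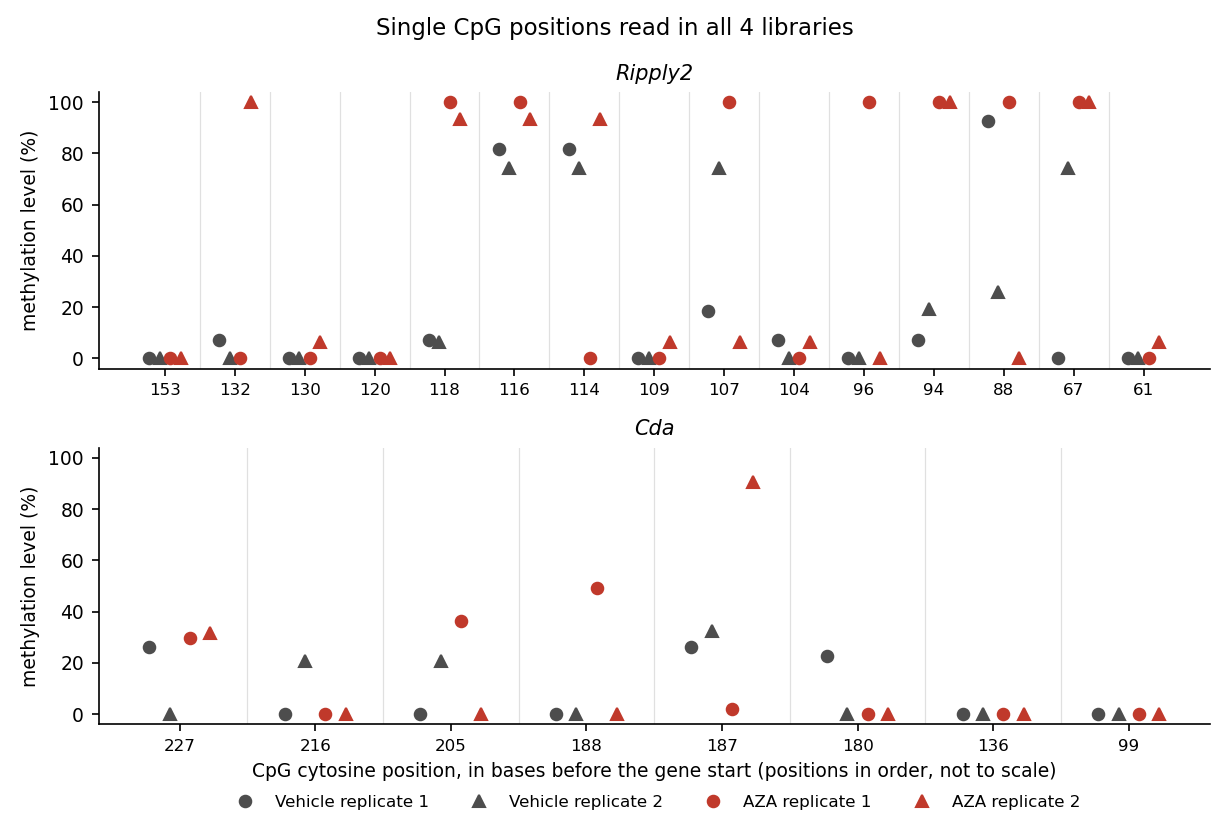
Methylation level (%) of each CpG position read at least 20 times in all 4 libraries, against its distance in bases before the gene start (positions in order, not to scale), for Ripply2 (15 positions) and Cda (8 positions); circles and triangles are replicates 1 and 2 of Vehicle (grey) and AZA (red). Levels before Ripply2 fall on a few steps in each library, and the AZA replicates differ by up to 100 points at single positions.

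The mean tile level was lower with AZA by about the spread between replicates. It was 49.9% and 50.9% in the Vehicle libraries and 49.8% and 48.4% in the AZA libraries, or 50.4% ± 0.697 against 49.1% ± 0.975 (SD, n = 2), a difference of −1.29 points. The groups did not overlap, but AZA replicate 1 lay 0.110 points below Vehicle replicate 1. The exact permutation test over the 4 libraries gave p = 0.3333, two-sided, which is the smallest that 2 against 2 can give. The difference was −0.603 points without AZA replicate 2, −0.800 without Vehicle replicate 2 and −1.98 without AZA replicate 1. Over single positions the levels were 26.1% and 26.7% in Vehicle and 26.2% and 25.2% in AZA (difference −0.686 points, exact permutation p = 0.667). There AZA replicate 1 lay between the Vehicle libraries, and the difference was −0.198 points without AZA replicate 2, −0.361 without Vehicle replicate 2 and −1.17 without AZA replicate 1.

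Counting every read once turned the direction. The reads in these tiles were methylated in 24.0% and 23.2% of calls in Vehicle and in 28.1% and 26.3% in AZA, a difference of 3.63 points (exact permutation p = 0.3333). Reads were distributed differently over the tiles: tiles with a mean level of at least 80% took 14.7% and 13.8% of reads in Vehicle and 17.5% and 17.4% in AZA. Tiles under 20% took 67.5% and 69.7% in Vehicle and 62.7% and 64.0% in AZA. The groups did not overlap in either share. The most deeply read 1% of tiles took 11.7 to 12.1% of reads in each library, and without them the read-weighted difference was still 3.45 points.

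**Figure D2:**
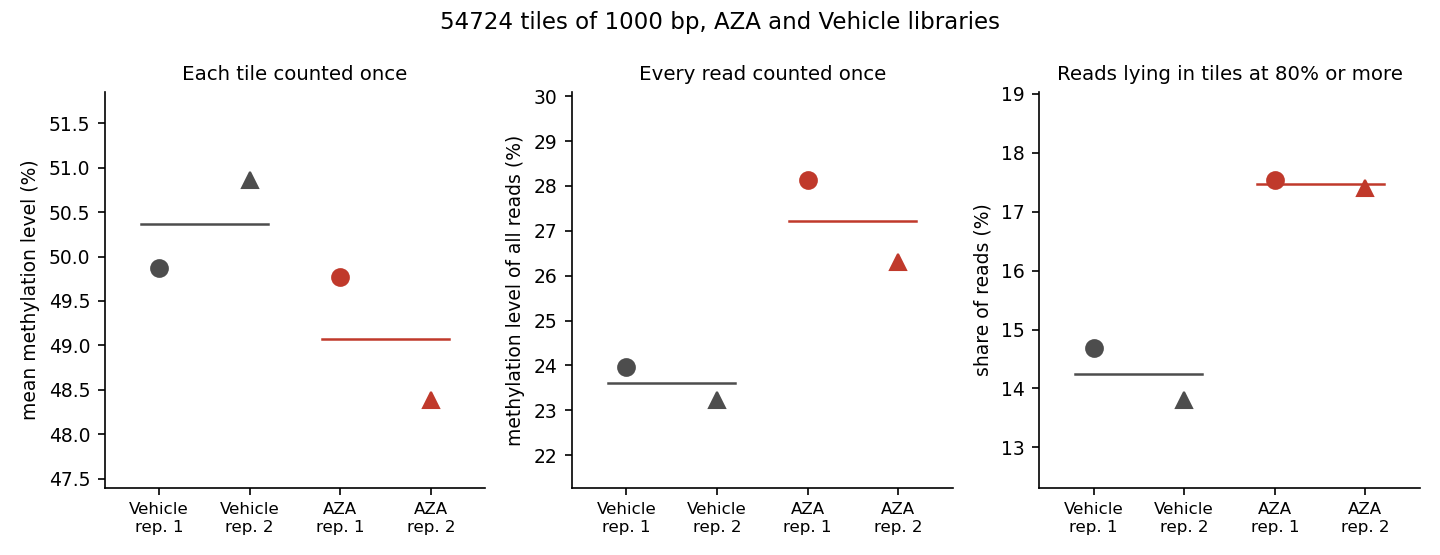
Mean level of 54724 tiles with each tile counted once (left, %), level of all their reads (middle, %) and share of reads lying in tiles with a mean level of at least 80% (right, %), for each Vehicle (grey) and AZA (red) library; lines are group means and the y axes do not start at 0. AZA lies below Vehicle on the left (difference −1.29 points) and above it in the middle (3.63 points).

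The lower tile mean of AZA was spread over the genome and lay mostly in 1 library. All 19 autosomes had a lower group mean in AZA, from −0.766 points on chromosome 11 to −1.56 points on chromosome 10. AZA replicate 2 was the lowest library and Vehicle replicate 2 the highest on all 19. AZA replicate 1 was below both Vehicle libraries on 9 chromosomes.

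**Figure D3:**
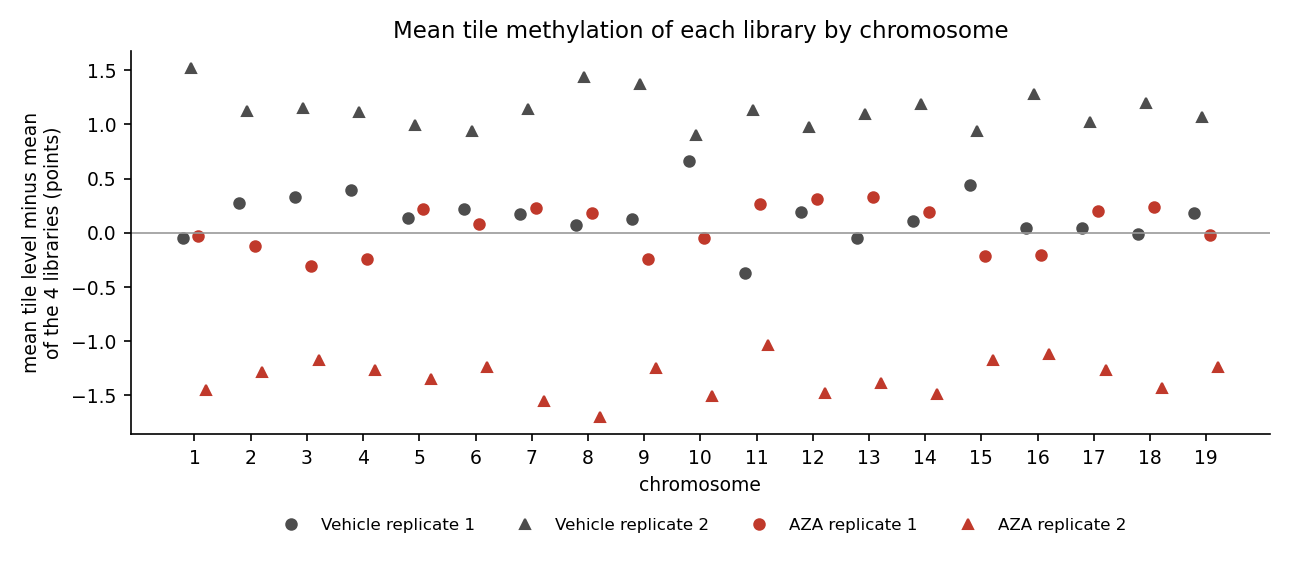
Mean tile level of each library minus the mean of the 4 libraries (points) on each of the 19 autosomes; grey is Vehicle, red is AZA, circles are replicate 1 and triangles replicate 2. AZA replicate 2 is lowest and Vehicle replicate 2 highest on every chromosome, while the other 2 libraries interleave.

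The difference varied with the level of the tile. Sorted by the mean over the 4 libraries compared, tiles between 60 and 80% (5526 tiles) had 72.2% and 75.7% in Vehicle and 71.4% and 68.3% in AZA (−4.09 points). Tiles at 80% or more (21600 tiles) had 92.9% and 94.0% in Vehicle and 92.8% and 90.9% in AZA (−1.60 points). Tiles under 20% (21599 tiles) had 4.31% and 4.40% in Vehicle and 4.13% and 4.05% in AZA (−0.265 points). In these 3 classes the groups did not overlap, while they overlapped between 20 and 40% (−0.885 points) and between 40 and 60% (−1.82 points).

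The AG120 libraries allow tiles to be chosen without the 4 libraries compared. Sorted by the AG120 level, tiles between 60 and 80% had 73.9% and 76.4% in Vehicle and 74.5% and 72.2% in AZA, a difference of −1.81 points with groups that overlapped, and tiles between 40 and 60% differed by −2.02 points. Among 12550 tiles at 80% or more in both AG120 libraries, the mean was 91.4% and 93.0% in Vehicle and 90.9% and 89.0% in AZA (−2.25 points). In Vehicle 2.35% and 1.251% of these tiles were under 50%, and in AZA 2.73% and 3.35% were. Tiles under 50% in both libraries of a group numbered 24 in Vehicle and 39 in AZA. The groups did not overlap in the mean level or in the share under 50%, but in both the nearest libraries of the 2 groups were closer to each other than replicates of a group were.

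By place, the difference in points was smallest near gene ends. Tiles between genes had 73.1% and 74.4% in Vehicle and 72.7% and 71.4% in AZA (−1.71 points). Tiles inside genes had 64.0% and 65.2% in Vehicle and 64.0% and 62.0% in AZA (−1.61 points), with AZA replicate 1 at 63.96% and Vehicle replicate 1 at 64.01%. Tiles near gene ends, mostly CpG-dense and unmethylated, had 21.7% and 22.3% in Vehicle and 21.7% and 20.8% in AZA (−0.716 points), where the groups overlapped. Tiles with 3 to 9 covered positions differed by −1.92 points and those with 60 or more by −0.341 points.

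Tiles and genes without any methylated read were more frequent with AZA. The share of tiles at exactly 0% was 9.27% and 8.63% in Vehicle and 11.8% and 11.1% in AZA. Tiles at exactly 100% made up 14.7% and 15.9% in Vehicle and 14.9% and 11.7% in AZA, so that of the AZA libraries replicate 2 alone was lower than both Vehicle libraries. Windows at gene starts and ends (defined with their test) were at exactly 0% in 13.1% and 11.96% of cases in Vehicle and in 18.4% and 16.2% in AZA. Median reads per window were 2919.5 and 3344 in Vehicle and 2750 and 2855 in AZA, and median reads per tile 766 and 824 against 875 and 872. The part of depth in the shares at 0% was not tested.

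At intermediate positions (13585 with a mean level between 30 and 70% over the 4 libraries), 39.7% and 36.5% stood at exactly 0 or 100% in the Vehicle libraries. In the AZA libraries 46.9% and 43.3% did, at median depths of 152 and 147 reads against 130 and 144 in Vehicle. The groups did not overlap in this share.

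Where both strands of a CpG were read, the 2 cytosines of the pair could be compared. Over 11158 such pairs the mean absolute difference between the strands was 8.31 and 8.41 points in Vehicle and 8.68 and 8.91 points in AZA. Among 1311 pairs with a mean level of at least 80% it was 9.48 and 8.06 points in Vehicle and 10.6 and 13.4 points in AZA. Both AZA libraries were higher than both Vehicle libraries on these 2 measures. Among 506 pairs at 95% or more in each library the difference was 0.413 and 0.279 points in Vehicle and 0.340 and 0.444 in AZA. There the groups overlapped, and the choice of pairs limits how far the strands can differ. The level of those 1311 pairs was 94.7% and 95.2% in Vehicle and 94.0% and 92.3% in AZA. The strands are read from separate fragments, and their part in the difference was not tested.

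The AZA libraries resembled each other less than any other pair of the 4. Over tiles, Pearson's r was 0.885 between the AZA replicates, 0.916 between the Vehicle replicates and 0.892 to 0.908 between libraries of different groups (54724 tiles, which are not independent). The mean absolute difference was 11.97 points between the AZA replicates, 10.1 points between the Vehicle replicates and 10.6 to 11.6 points between groups. Tiles more than 50 points apart made up 3.93% of all tiles between the AZA replicates and 2.59% between the Vehicle replicates.

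No tile passed the test across the genome. The edgeR quasi-likelihood test at a false discovery rate of 0.05 called 0 of 54724 tiles (0%), with 1692 (3.09%) at an unadjusted p under 0.05, of which 1150 were lower and 542 higher with AZA. Limma also called 0 (3099 at an unadjusted p under 0.05), and DESeq2 called 16 (0.0292%), 9 higher and 7 lower. The groups did not overlap in 9798 tiles (17.9%) that were lower with AZA and in 6520 (11.9%) that were higher. Of these, 1806 were lower and 1224 higher by at least 25 points. With 2 libraries a group, a count of 0 does not show that no tile differed.

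Tiles named for the size of their difference, among 7816 with at least 100 reads in each library and replicates within 10 points, moved both ways. The tile over Lrp1, a lipoprotein receptor, had 95.6% and 97.7% in Vehicle and 15.8% and 25% in AZA. The tile over Neb, the giant muscle protein nebulin, had 100% in both Vehicle libraries and 41.3% and 41.4% in AZA. Neither tile had a position with 20 reads in all 4 libraries. The tile inside Oscp1 had 65.6% and 74.3% in Vehicle and 5.25% and 0.176% in AZA, and at 3 shared positions 54.2% and 78.7% against 4.34% and 0.0889%. In AG120, without azacitidine, the Oscp1 tile had 16.7% over 6 reads and 0% over 388 reads, which allow up to 0.773%. In the combination it had 47.3% and 100%. Among gains, the tile inside the gene 2900026A02Rik had 13.8% and 4.69% in Vehicle and 90.7% and 94.6% in AZA, and at 4 shared positions 3.82% and 1.56% against 96.3% and 99.9%. This tile had 52.6% and 7.89% in AG120 and 67.9% and 71.7% in the combination. The tile inside Gm26630 had 39.5% and 40% against 100% in both AZA libraries. Each of these 5 tiles had an edgeR adjusted p of 1, and Gm26630 had 0.0492 by DESeq2.

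A window was set at each gene, from 1000 bp before to 500 bp after the gene start where a strand was at hand (10691 genes), or at the better covered end without strand (4227 genes). These 14918 windows had a mean level of 15.5% and 15.8% in Vehicle and 15.6% and 14.8% in AZA (−0.430 points, exact permutation p = 0.667). The edgeR quasi-likelihood test called 0 windows (0%), with 571 (3.83%) at an unadjusted p under 0.05, 434 lower and 137 higher. Limma called 0 (877 at an unadjusted p under 0.05) and DESeq2 92 (0.617%), 61 lower and 31 higher. Groups did not overlap in 2892 windows (19.4%) lower with AZA and 1855 (12.4%) higher. Of the 14918 windows, 1299 held the same counts as the window of another gene.

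Many of the windows with the largest differences were read at different positions in different libraries. Of the 16 windows named for size in both directions, 9 had no position with 20 reads in all 4 libraries. The window of Esam, an endothelial adhesion molecule (chromosome 9, 37527089 to 37528589), had 97.3% and 98.6% in Vehicle and 39.9% and 32.7% in AZA. Its 3 shared positions were at 100% in all 4 libraries. The window of Gm20522, a noncoding RNA (chromosome 17, 35125843 to 35127343), had 80.2% and 70.5% in Vehicle and 8.73% and 18.1% in AZA, while its 3 shared positions had 100%, 100%, 100% and 87.1%.

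In Fam174b and Gm9895 the AZA libraries were also lower at the shared positions, whose reads are part of those that chose the windows. Fam174b, which encodes a membrane protein (chromosome 7, 73739307 to 73740807), had 42.1% and 38.0% in Vehicle and 6.78% and 2.69% in AZA. Its 7 shared positions had mean levels of 46.8% and 75.1% in Vehicle and 0% and 2.55% in AZA, and both AZA libraries were below both Vehicle libraries at all 7. In AG120 the window stood at 59.98% and 4.93%, a wider gap than between Vehicle and AZA. Gm9895, a noncoding RNA (chromosome 19, 29066301 to 29067801), had 43.9% and 35.5% in Vehicle and 0% in AZA, where the reads allow up to 0.485%. Its 3 shared positions had mean levels of 54.9% and 33.3% in Vehicle and 0% in AZA, with 93 reads in AZA replicate 2. Both AZA libraries were below both Vehicle libraries at 1 of the 3. In both AG120 libraries Gm9895 was also at 0%, over 350 and 10 reads, which together allow up to 0.833%. Both had an edgeR adjusted p of 1. The other 4 windows, of Qrfpr, B130046B21Rik, Gng2-ps1 and Ptprd, had 37.5 to 82.8% in Vehicle and 1.71 to 47.9% in AZA.

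Windows higher with AZA showed differences of like size. Atp12a, a proton pump of epithelia (chromosome 14, 56363669 to 56365169), had 16.03% and 16.5% in Vehicle and 55.8% and 59.7% in AZA. The Atp12a window had no shared position, so its levels come from positions that differed between libraries. Disp3, a sterol-sensing membrane protein (chromosome 4, 148287696 to 148289196), had 11.7% and 14.5% in Vehicle and 44.8% and 53.2% in AZA. At its 9 shared positions Disp3 had 11.4% and 11.1% against 44.1% and 52.7%, and 3 of the 9 were higher in both AZA libraries. The AG120 libraries, without azacitidine, had 76.9% over 944 reads and 100% over 6 reads in the Disp3 window. Outside the 8 windows named for size, Tcf21, a mesodermal transcription factor of the tumour suppressor list (chromosome 10, 22819643 to 22821143), had 0% in Vehicle, where the reads allow up to 0.395%, and 24.7% and 44.4% in AZA. In AG120, without azacitidine, Tcf21 stood at 19.7% over 915 reads and at 55.6% over 18 reads, under the minimum of 20. Gm12530, a noncoding RNA, had 70.3% and 66.3% in Vehicle and 100% and 96.9% in AZA, and 70.3% and 66.3% against 100% in both over 3 shared positions. Its level in AG120 was 88.4% and 99.8%. The windows of the tRNA genes n-TGgcc13 and n-TLcag7, which hold the same counts, had 3.04% and 1.81% in Vehicle and 36.5% and 44.8% in AZA, with no shared position. Their level in AG120 was 43.2% and 16.7%. The edgeR adjusted p was 1 for Tcf21 and for the 8 windows named for size as higher, which also include Cntn3, Pkd1l2 and Zfp345.

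Of the 6 windows named for the smallest edgeR p, 3 in each direction, all but Rn18s-rs5 were near 0% in one group and low in the other. Rn18s-rs5 is described with the shared positions. Rps25, a ribosomal protein gene (chromosome 9, 44406714 to 44408214), had 1.75% and 1.35% in Vehicle and 0.0263% and 0.0326% in AZA (edgeR adjusted p = 1). Ubac2, an endoplasmic reticulum protein (chromosome 14, 121877559 to 121879059), had 0% and 0.0200% in Vehicle and 3.88% and 3.22% in AZA (adjusted p = 1 by edgeR and 0.0440 by DESeq2). At its 20 shared positions Ubac2 had 0% in Vehicle, which allows up to 0.0434%, and 3.24% and 0.452% in AZA. Both AZA libraries were above both Vehicle libraries at 0 of the 20. Nup54, a nuclear pore protein, had 0.0159% and 0.0393% in Vehicle and 3.86% and 2.22% in AZA (adjusted p = 1 by edgeR and 0.0462 by DESeq2). At its 20 shared positions Nup54 had 0% and 0.0574% in Vehicle and 0.0388% and 0.143% in AZA, so most of its difference lay at positions that were not shared.

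Because libraries read different positions, the comparison was repeated on shared positions, an alternative chosen after the data were seen. Of 3305172 autosomal positions read in any of the 4 libraries, 18.8% were read in all 4, and 51.2% of tiles and 31.6% of windows had no position with 20 reads in each. Over 21002 tiles with at least 3 shared positions the mean was 33.4% and 34.0% in Vehicle and 33.4% and 32.2% in AZA (−0.890 points, exact permutation p = 0.667). AZA replicate 1 then lay between the Vehicle libraries. The edgeR test called 0 of these tiles (379 at an unadjusted p under 0.05).

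At shared positions, windows were named among those with at least 5 of them, groups that did not overlap and replicates within 10 points, which leaves out Fam174b and Gm9895 above. The 5 lowest in AZA relative to Vehicle under these limits were those of Sdk2 and Neo1, both adhesion or guidance receptors of neurons, and of Zfp641, Gm52558 and Tox3. Sdk2 had mean levels of 38.8% and 40.8% in Vehicle and 0.238% and 0% in AZA over 5 positions, 2 of which were lower in both AZA libraries than in both Vehicle libraries. Neo1 had 26.9% and 35.5% in Vehicle and 0% and 0.116% in AZA over 9 positions, 5 of them lower in both AZA libraries. Over all reads of its window Neo1 had 6.74% and 8.76% in Vehicle and 5.37% and 1.80% in AZA. Over all reads the AZA mean of Zfp641 was higher than that of Vehicle (47.4% and 22.1% in Vehicle, 46.7% and 28.8% in AZA). For Tox3 the groups overlapped over all reads (25.5% and 28.5% against 0.311% and 30.6%). The 5 highest under these limits, which leave out Gm12530 with its 3 shared positions, were those of Disp3, Gm2399, Mlf1, Nav3 and Ripply2. Mlf1, a myeloid leukaemia factor (chromosome 3, 67373097 to 67374597), had 6.67% and 0% in Vehicle and 33.7% and 31.1% in AZA over 15 positions, 4 of them higher in both AZA libraries. Over all reads Mlf1 had 3.64% and 2.53% against 11.6% and 28.5%. The edgeR adjusted p on shared positions was 1 for each of these 10 windows.

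Eed, a core subunit of the Polycomb repressive complex that sets H3K27 methylation, had one of the smallest p on shared positions. Over 18 positions it had 2.44% and 8.86% in Vehicle and 0% in AZA, where the reads allow up to 0.0249% (edgeR adjusted p = 1). At 0 of the 18 positions were both AZA libraries below both Vehicle libraries. Over all reads of the Eed window the levels were 2.14% and 3.53% in Vehicle and 0% in both AZA libraries, 0.0371% and 2.24% in AG120 and 0% in the combination, with an adjusted p for AZA against Vehicle of 0.0440 by DESeq2.

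The window of the ribosomal RNA repeat copy Rn18s-rs5 (chromosome 17, 39845354 to 39846854, annotated as a pseudogene) was the 1 window past the threshold on shared positions. Ribosomal RNA genes form long arrays of near-identical copies, so reads of many copies fall on this single annotated one. Each of the 4 libraries had between 1180292 and 1276896 reads there, summed over positions. Over 293 shared positions the mean level was 32.5% and 35.7% in Vehicle and 40.4% and 42.2% in AZA, 7.25 points higher (edgeR adjusted p = 0.00374). Both AZA libraries were above both Vehicle libraries at 124 of the 293 positions and below both at 10. Over all 192180 positions the shares were 2.75% above and 3.69% below. Of all positions, however, 58.1% had exactly the same level in the 4 libraries, so these shares are not of like positions. Neighbouring positions can lie on the same reads, so the 293 are not independent.

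The call for Rn18s-rs5 depended on the reads used, on the region and on the tool. Over shared positions no 1000-bp tile of the repeat was called, and their differences ranged from −0.584 to 7.88 points. In the tile from 39844001 the shared positions had 27.7% and 35.8% in Vehicle and 29.9% and 32.4% in AZA. In the tile from 39847001 they had 29.4% and 23.6% in Vehicle and 34.2% and 19.2% in AZA. Over all reads of the window the levels were 31.7% and 35.5% in Vehicle and 40.1% and 40.4% in AZA, with an adjusted p of 1 by edgeR, 0.990 by limma and 0.981 by DESeq2. Without Vehicle replicate 2 the edgeR adjusted p over all reads was 0.00325. Over 259 positions with 20 reads in all 8 libraries the level was 31.6% and 35.1% in Vehicle, 39.8% and 41.4% in AZA, 41.6% and 55.7% in AG120 and 47.3% and 47.0% in the combination. AZA thus lay above Vehicle, while the combination lay between the AG120 libraries. The share of methylated calls in whole libraries was also higher in AZA than in Vehicle, at 33.3% and 31.9% in Vehicle, 38.4% and 36.2% in AZA, 40.7% and 49.1% in AG120 and 49.8% and 47.3% in the combination. Its part in the difference at the repeat was not tested.

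**Figure D4:**
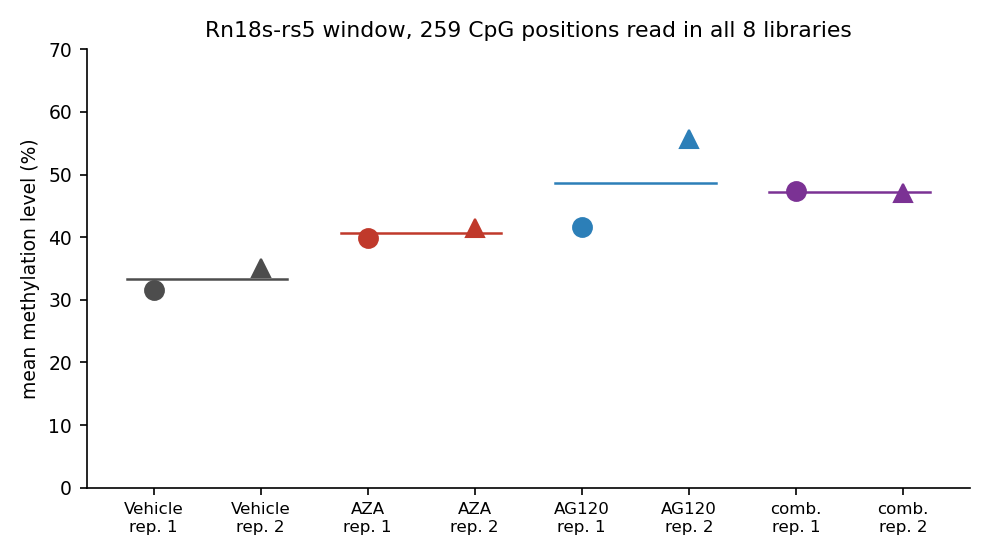
Mean methylation level (%) of 259 CpG positions of the Rn18s-rs5 window with at least 20 reads in all 8 libraries; circles and triangles are replicates 1 and 2 and lines are group means. Both AZA libraries (39.8% and 41.4%) lie above both Vehicle libraries (31.6% and 35.1%), and the AG120 libraries span 41.6 to 55.7%.

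Imprinted genes, which keep methylation on 1 parental allele, were lower in 20 of the 25 windows that could be measured, and the median of their differences was −9.62 points. Over all windows 53.5% were lower and the median was −0.149 points. The mean of the imprinted windows was 45.4% and 46.2% in Vehicle and 37.7% and 36.9% in AZA, and 0 members passed the edgeR test. Groups did not overlap in 8 of the 25 that were lower and 2 that were higher, against 19.4% and 12.4% of all windows. Phlda2, a placental growth regulator, had 15.5% and 28.2% in Vehicle and 0% in AZA, where the reads allow up to 0.383%; the edgeR adjusted p was 1. Peg3, a zinc finger gene expressed from the paternal allele, had 23.3% and 45.0% in Vehicle and 8.82% and 3.84% in AZA, and Usp29 is read from nearly the same reads. Peg10 and Sgce, also counted separately, had the same levels, at 97.4% and 31.25% in Vehicle and 78.8% and 30.6% in AZA. Their windows had as few as 48 reads, and their difference of −9.62 points is the median of the list. H19 had 20.2% and 30.8% in Vehicle and 11.6% and 2.15% in AZA.

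The lower levels of imprinted windows were not seen over shared positions. Phlda2, Peg3 and H19 had no shared position. Among 9 imprinted windows with at least 3 shared positions, 4 were lower and 5 higher, with a median of 10.8 points. Plagl1, which had 24 shared positions, was at 68.6% and 51.9% there in Vehicle and at 95.3% and 84.0% in AZA. Nnat had 81.6% and 82.3% in Vehicle and 21.2% and 41.1% in AZA over 8 shared positions. Of 14 imprinted windows that passed in all 8 libraries, 6 were lower and 7 higher in the combination than in AG120, with a median of 5.53 points.

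Germline genes, which are silenced by promoter methylation outside the germ line and are known to respond to azacitidine in culture, were over 80% on average in 16 of 21 windows and under 20% in 2. Their mean over 21 windows was 77.4% and 80.2% in Vehicle and 78.6% and 77.5% in AZA, with 12 lower and 9 higher and a median of −0.878 points, which turned to 2.48 points without AZA replicate 2 and 0.517 points without Vehicle replicate 2. Dazl, a germ cell RNA-binding protein, had 99.6% and 99.9% in Vehicle and 93.9% and 94.3% in AZA (edgeR adjusted p = 1). Mael, of the piRNA pathway, had 97.6% and 94.3% in Vehicle and 100% and 99.8% in AZA. Neither had a shared position.

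Genes of the methylation machinery had a mean under 20% over the 4 libraries in all 19 windows, of which 11 were lower and 8 higher. Their median difference was −0.108 points, and 0 passed the threshold. Dnmt3b had 2.62% and 4.01% in Vehicle and 1.137% and 0.208% in AZA, and 3.18% and 3.87% against 1.06% and 1.91% over 22 shared positions. Both AZA libraries were below both Vehicle libraries at 0 of the 22. Tet2, a 5-methylcytosine oxidase, had 0% and 0.0387% in Vehicle and 0% in AZA, which allows up to 0.0818%. Tet1 had 1.77% and 6.47% in Vehicle and 31.9% and 0% in AZA, so that the AZA libraries lay on both sides of Vehicle.

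Genes of azacitidine uptake, activation and nucleotide metabolism showed 15 lower and 7 higher windows among 22. Their median was −0.325 points (0.00332 without Vehicle replicate 2), and 0 passed the threshold. Dck, a deoxycytidine kinase, had 2.96% and 0.0245% in Vehicle and 0.115% and 1.02% in AZA. Cda had 22.5% and 19.02% in Vehicle and 7.395% and 23.8% in AZA. Rrm1, a ribonucleotide reductase subunit, had 0.148% and 9.03% in Vehicle and 11.6% and 16.9% in AZA, and its groups did not overlap. Nme1, a nucleoside diphosphate kinase, had 0.797% and 0.274% in Vehicle and 0% in AZA, which allows up to 0.140%.

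Interferon and viral sensing genes showed 10 lower and 7 higher windows, and a median of −0.704 points that turned to 0.106 without Vehicle replicate 1 and 0.0613 without Vehicle replicate 2. Irf1, an interferon regulatory factor, had 1.08% and 1.09% in Vehicle and 0.170% and 0% in AZA. Over 8 shared positions Irf1 had 3.44% and 3.316% in Vehicle and 0% in AZA, which allows up to 0.106%, and 1 of the 8 was lower in both AZA libraries. Tumour suppressors split into 13 lower and 12 higher, with a median of −0.378 points (1.56 without AZA replicate 2, 0.924 without Vehicle replicate 2). Cdkn2b, an inhibitor of cyclin-dependent kinases, had 0.474% and 1.46% in Vehicle and 0.168% and 4.39% in AZA.

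Stem and progenitor genes were more often lower (13) than higher (5). Their median difference was −0.715 points, and their means were 6.23% and 4.22% in Vehicle and 5.503% and 3.16% in AZA, which overlapped. Kit, the receptor used to select the cells, had 19.4% and 0.137% in Vehicle and 0.391% and 2.34% in AZA. The window of Itgam, which encodes Cd11b, was not among those measured, and promoter methylation does not test the labelled cell type. Flt3 had 3.38% and 3.72% in Vehicle and 0% and 0.141% in AZA (edgeR adjusted p = 1). Over its 11 shared positions Flt3 had 0% and 0.860% in Vehicle and 0% in AZA, which allows up to 0.0916%. Hoxa10, a homeobox gene of progenitors, had 8.82% and 1.26% in Vehicle and 0.0604% and 0.0191% in AZA. Among the 5 higher members, groups did not overlap in 1, Tal1, which was 5.58 points higher with AZA. Over its 28 shared positions Tal1 had 0% and 0.301% in Vehicle and 4.46% and 7.03% in AZA.

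Myeloid differentiation genes were lower in 8 and higher in 4 windows. Their median difference was −2.55 points (0.206 without Vehicle replicate 2), whereas the mean was higher in AZA, at 5.98% and 10.8% in Vehicle and 6.36% and 17.5% in AZA. Cebpe, a granulocyte factor whose window had as few as 30 reads, stood at 10.47% and 0% in Vehicle and 2.26% and 99.2% in AZA. Id2, a helix-loop-helix inhibitor, had 1.26% and 6.51% in Vehicle and 0% and 0.0376% in AZA. Klf4, a zinc finger factor of monocytes, had 4.59% and 9.25% in Vehicle and 1.44% and 0.0721% in AZA. Over its 5 shared positions Klf4 had 0.775% and 0.0735% in Vehicle and 0% in AZA, which allows up to 0.403%. The 2 higher members whose groups did not overlap were Gfi1 and Csf2ra. Gfi1 had 0.565% and 1.13% in Vehicle and 3.65% and 3.07% in AZA, and 0% in all 4 libraries over 4 shared positions. Csf2ra had 14.2% and 34.6% in Vehicle and 44.3% and 51.0% in AZA.

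Among the other cell types that a sort could hold, stromal and endothelial genes were lower in 6 of 6 windows, against 53.5% of all windows, and groups overlapped in 3 of the 6. The fewest reads were 25 in Pdgfrb and 46 in Emcn. Of 2 windows with at least 3 shared positions 1 was lower and 1 higher there, and on the AG120 background 3 were lower and 3 higher in the combination. Their mean was 31.0% and 36.2% in Vehicle and 23.8% and 23.5% in AZA, with a median of −8.21 points. Cxcl12, a niche chemokine, had 46.2% and 49.4% in Vehicle and 17.9% and 22.6% in AZA, and no shared position. Lymphoid genes (median −2.80 points, 2.14 without AZA replicate 2) were lower in 3 of 5 windows, at 13.9% and 9.88% in Vehicle and 9.44% and 5.07% in AZA. Erythroid and megakaryocytic genes (median 0.455 points, −0.851 without Vehicle replicate 1 and −0.936 without AZA replicate 2) were lower in 2 of 4, at 5.34% and 5.18% in Vehicle and 2.33% and 5.24% in AZA. Housekeeping genes (median 0.197 points, −0.292 without AZA replicate 1) were lower in 6 and higher in 7 of 14 windows, at 1.23% and 0.998% in Vehicle and 2.04% and 1.09% in AZA. Methylation markers do not give the share of another cell type, and its part in these differences was not tested.

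The same drug was also given on top of AG120, with libraries that share none of those above. Over 34207 tiles that passed in all 8 libraries, the combination minus AG120 was −0.162 points (AG120 40.9% and 42.6%, combination 41.7% and 41.5%). AZA minus Vehicle was −1.07 points over the same tiles. Across these tiles, Pearson's r between the 2 differences was −0.022, and 49.8% of the 32285 tiles with both differences other than 0 had the same sign. Over 12661 windows r was −0.033, and over 21004 positions it was −0.020.

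Tiles with a large gap between AZA and Vehicle were also compared on the AG120 background, where their means were close or overlapped. Of 866 tiles lower by at least 25 points with AZA that passed in all 8, 46.2% were lower in the combination than in AG120, against 50.3% of all tiles. Their mean was 64.6% and 65.9% in AG120 and 67.7% and 66.8% in the combination. Of 591 tiles higher by at least 25 points, 48.1% were higher in the combination, against 45.3% of all tiles. Their mean was 53.7% and 61.9% in AG120 and 57.0% and 58.3% in the combination. Of the 866, 59 (6.81%) were also lower by at least 25 points in the combination with groups that did not overlap, against 2.69% of all tiles. Of the 591, 52 (8.80%) were also higher by at least 25 points without overlap, against 2.54% of all tiles. All tiles include those too low to fall, or too high to rise, by 25 points, so these shares are not of like tiles. At 50 points, 0 of 89 tiles were also lower (0.289% of all tiles) and 2 of 58 also higher (0.327% of all tiles).

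**Figure D5:**
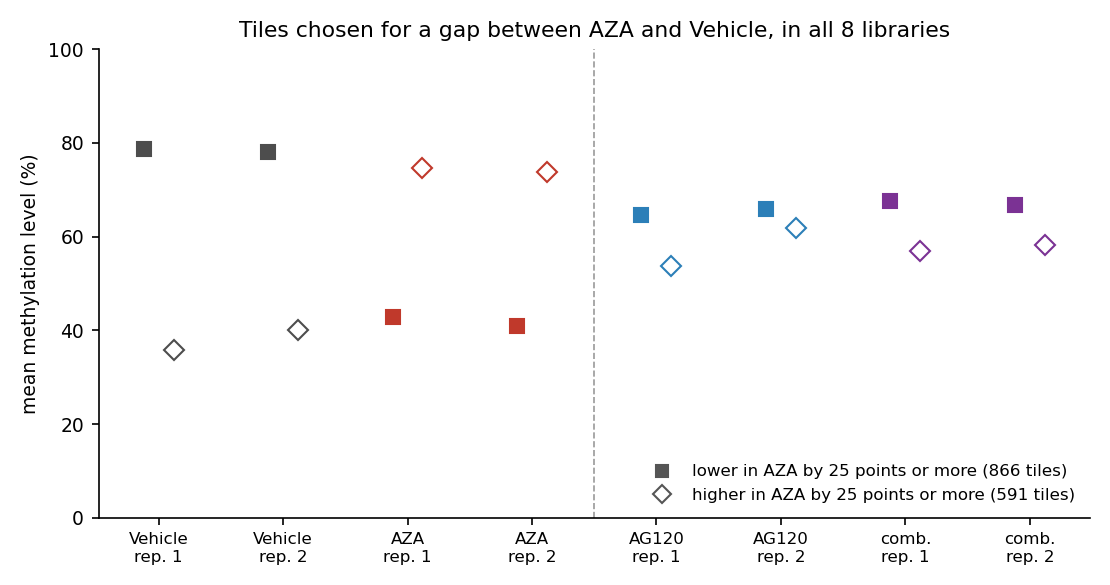
Mean methylation level (%) in each of the 8 libraries of tiles chosen for being lower (filled squares, 866 tiles) or higher (open diamonds, 591 tiles) in AZA than in Vehicle by at least 25 points without overlap. Left of the dashed line are the 4 libraries that chose the tiles; right of it, AG120 and the combination differ by a few points (64.6% and 65.9% against 67.7% and 66.8% for the squares).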

How the data were processed

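RRBS counts were analysed as deposited: 1 table of methylated and unmethylated read counts per CpG position and strand for 8 libraries, made by the authors before deposit. The submitters' processing notes name Bismark 0.22.3 and the build mm10, besides edgeR 3.32 in R 4.0.2, SAMtools 1.4.1, bcl2fastq 2.17.1.14 and Trim Galore 0.4.4, with no order. Whether duplicate reads were removed is not given in the sources used here. Limits beside a level of 0% are 3 counts of the reads summed over positions, and cover counting error only. A sequenced read over several CpGs is counted at each, so these counts are not independent. The limits are therefore lower than the number of separate reads would give. The table held 0 unused sample columns. Of positions falling in RefSeq promoter sequences, 99.3% lay on a CpG.

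Tiles, gene windows and positions needed at least 20 reads in each of the 4 libraries, and tiles at least 3 positions. Windows were placed with the RefSeq gene table. Calls used the edgeR 4.0.16 robust quasi-likelihood test on the counts, with Benjamini-Hochberg adjustment at 0.05. Alternatives were limma 3.58.1 on log2 ratios (pseudocount 2) and DESeq2 1.42.0 (R 4.3.3), other read minimums, left-out libraries, a replicate block and all 8 libraries. Single values used an exact two-sided permutation test over libraries, in Python 3.11.15. The test script was first tested on simulated data.

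Named windows had at least 100 reads in each library, groups that did not overlap and replicates within 10 points. Of these the 8 lowest and 8 highest in AZA relative to Vehicle were named, and the 3 with the smallest p in each direction. Added to them were the 2 smallest p of each gene list and a fixed set (Kit, Itgam, Dnmt1, Dnmt3a, Dnmt3b, Tet2, Uck2, Cda, Dazl, H19 and Cdkn2b, where measured). Up to 5 tiles in each direction were named under the same limits. At shared positions the 5 lowest and 5 highest windows with at least 5 shared positions, groups that did not overlap and replicates within 10 points were named, and the 3 smallest p each way. Other named list members were chosen after their values were seen. Members and lists were chosen with earlier results of these data known, and the analysis of shared positions was added after the data were seen.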

Additional observations from a re-analysis of the deposited data

Results flagged for a closer look

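In 7 windows named over all reads, both AZA libraries moved one way from both Vehicle libraries. In the same windows both combination libraries moved the opposite way from both AG120 libraries. The difference between the 2 contrasts was tested as an interaction in the edgeR fit over all 8 libraries, with an adjusted p of 1 for each of the 7. Aven, an apoptosis inhibitor, differed by −1.68 points with AZA and by 4.08 points on top of AG120. Id2, an inhibitor of helix-loop-helix factors, differed by −3.87 and 2.18 points. Rpl13a, a ribosomal protein gene, differed by −0.593 and 12.6 points. Zfpm1, a partner of GATA factors, differed by 3.10 and −2.97 points. Tbp, the TATA-binding protein, differed by 3.45 and −0.626 points. The tRNA windows n-TGgcc13 and n-TLcag7, which share their counts, differed by 38.2 and −26.6 points. These are 7 of 43 windows named over all reads that passed in all 8 libraries. Windows named for size or smallest p had to have AZA and Vehicle groups that did not overlap, which is part of this criterion. The share among the 43 therefore cannot be set against that of all windows. Ripply2, named at shared positions, moved in opposite directions as well. Over all reads of its window it had 20.9% and 29.4% in Vehicle and 47.9% and 32.8% in AZA. In AG120, without azacitidine, it had 56.1% and 46.4%, and in the combination 24.3% and 6.31%. Among all 12661 windows that passed, 586 (4.63%) moved in opposite directions without overlap on the 2 backgrounds and 661 (5.22%) in the same direction. The interaction had an unadjusted p under 0.05 in 358 windows and passed the edgeR threshold in 0.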

How the results depend on the processing

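The mean differences (tiles −1.29, positions −0.686 points) kept their sign under other read minimums, all 8 libraries and without the most deeply read 1%. They reversed with every read counted once (3.63 and 2.63 points). Leaving out 1 library gave −1.98 to −0.603 points for tiles and −1.17 to −0.198 for positions. limma called 0 tiles and 0 windows, DESeq2 16 and 92, and edgeR 0 and 0 under other read minimums and with all 8 libraries. edgeR called 0 tiles with any 1 library left out or over shared positions. Its window count was 0 to 1 with 1 library left out and 1 over shared positions, in each case Rn18s-rs5. With the replicate block the means were −1.29 and −0.686 points and 0 tiles and 0 windows were called (1413 and 464 at an unadjusted p under 0.05). Replicate 1 minus 2 in Vehicle and in AZA correlated at −0.0023 over tiles and −0.011 over windows, so the numbers were not taken to pair libraries.

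Over shared positions the median reversed for housekeeping (−0.0984 points), imprinted (10.8) and tumour suppressor (0.916) windows, and the difference for Gm10638 (0.0270) and Tbp (−0.0317). With 1 library left out, these differences spanned 0: tiles at 20 to 40% (−2.04 to 0.274 points), the medians of azacitidine metabolism (−0.573 to 0.00332), erythroid (−0.936 to 1.76), germline (−3.67 to 2.48), housekeeping (−0.292 to 0.430), interferon (−0.917 to 0.106), lymphoid (−7.73 to 2.14), myeloid (−3.30 to 0.206) and tumour suppressor windows (−2.02 to 1.56), and Cda (−13.4 to 2.995), Cdkn2b (−0.797 to 3.42) and Kit (−17.998 to 1.23). The cause was not tested. With 2 libraries a group, no exact test can go below p = 0.3333, and depth sets the limits beside levels of 0%.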

Other observations

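Over single CpG positions, the groups did not overlap in 7085 positions (3.69% of 192180) that were lower with AZA and in 5290 that were higher. Differences of at least 50 points numbered 2830 lower and 2268 higher, and of at least 80 points 657 lower and 532 higher. The level was exactly the same in all 4 libraries at 58.1% of positions, at 0% in 48.6% and at 100% in 9.52%. Among 17651 tiles at 20% or less in both AG120 libraries, 21.3% and 19.3% stood at exactly 0% in Vehicle and 27.9% and 25.4% in AZA.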
